A study of Mus musculus with 18 samples.

Results

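The keratins are the intermediate filament proteins of epithelial cells. The family was taken here as the protein-coding genes whose GENCODE symbol is Krt followed by digits and at most 1 letter, which gave 54 of the 57126 genes in the table of read counts. Bulk RNA was sequenced from 18 mouse mammary tumors of 3 Trp53 genotypes, written MaP R172H/- (7 tumors from 7 mice), MaP R245W/- (5 tumors from 5 mice) and MaP -/- (6 tumors from 4 mice). Adenovirus carrying Cre recombinase was injected into the mammary glands of female F1 BALB/c and C57BL/6J hybrid mice at 10 to 12 weeks of age. Per the study, mice were euthanized when moribund, and tumor latency differed between mice, so age at sampling was not uniform. After Cre the ductal epithelial cells kept 1 allele with the Arg-to-His change (R172H) or the Arg-to-Trp change (R245W) and no other Trp53, or lost both alleles, so that all 3 groups share the loss of wild-type Trp53 in recombined cells while stroma and immune cells keep it. A Rosa26 LSL-TdTomato reporter allele was carried by 3 of the MaP R172H/- and 3 of the MaP R245W/- mice and by 0 of the MaP -/- mice. Each sample was a piece of whole tumor, so stroma is part of every value, and fewer epithelial cells cannot be told apart from less keratin RNA per cell. The MaP R172H/- libraries were sequenced on an Illumina HiSeq and all others on an Illumina NovaSeq instrument, so platform and that genotype cannot be told apart. By the study's qRT-PCR subtyping, MaP R172H/- tumors were luminal B, apart from the HER2-enriched YZ6. All others were triple-negative, lacking Esr1, Pgr and Erbb2 expression. Subtype thus also cannot be told apart from that genotype.

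Keratin filaments are built from pairs of a type I (acidic) and a type II (basic to neutral) chain, and a chain without a partner is unstable. Krt8 and Krt18 are the first pair made in simple epithelia, with Krt7, Krt19 and Krt20 added in ducts and gut. In the mammary gland the luminal cells are known for Krt8, Krt18 and Krt19, and the basal myoepithelial cells for Krt5, Krt14 and Krt17. Krt1 and Krt10 mark the upper layers of the epidermis, Krt4 and Krt13 the internal squamous epithelia, and Krt6a, Krt6b and Krt16 appear in wounded or rapidly dividing squamous epithelium. The hair keratins form the hair shaft and its root sheath.

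Total counts per tumor lay between 23113578 and 37365062. Levels are given as CPM, the counts of a gene scaled to a common library size after TMM normalization, and levels of different keratins are compared only as CPM per kilobase of transcript. Trp53 itself had a median of 45.8 CPM (10.8 to 50.3) in MaP R172H/-, 27.1 CPM (9.09 to 59.0) in MaP R245W/- and 12.2 CPM (9.43 to 21.6) in MaP -/- tumors, so the groups overlapped. A tumor of each group stood apart in epithelial adhesion genes: YZ7 (MaP R172H/-), JM1233 (MaP R245W/-) and JM779-T1 (MaP -/-). Their mean log2 CPM over 18 epithelial adhesion genes was 2.62, 2.85 and 1.20, against 5.20 to 7.64 in the other 15 tumors. Epcam, a surface marker of epithelial cells, was at 24.6, 34.8 and 10.3 CPM in them and at 259 to 1178 CPM in the others. Vim, the filament protein of mesenchymal cells, was at 1360, 2350 and 4515 CPM in them and at 195 to 1736 CPM in the others. Results are therefore also given without these 3 tumors, a choice made after the data were seen. The 3 were not alike in other epithelial lists. In YZ7, JM1233 and JM779-T1 the myoepithelial contractile genes summed to 2096, 514 and 33.0 CPM. Regulators of keratin genes summed to 473.5, 174.5 and 278.8 CPM.

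Of the 54 keratins, 27 lie on chromosome 11 and 27 on chromosome 15, 28 are type I and 26 are type II. Krt18 is the type I gene inside the type II cluster on chromosome 15, and 23697 bases separate it from Krt8. In these tumors 35 keratins reached 10 counts in at least 1 tumor and 8 did so in all 18 (Krt7, Krt8, Krt10, Krt14, Krt18, Krt19, Krt23 and Krt80). The other 19 stayed under 10 counts in every tumor, 11 of them at 3 counts or fewer, and Krt34 and Krt82 had 0 counts throughout. Only 21 passed the filter on low counts in at least 1 comparison, namely 5 of 5 simple, 4 of 4 basal, 7 of 15 squamous, 2 of 24 hair and 3 of 6 other keratins.

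**Figure D1:**
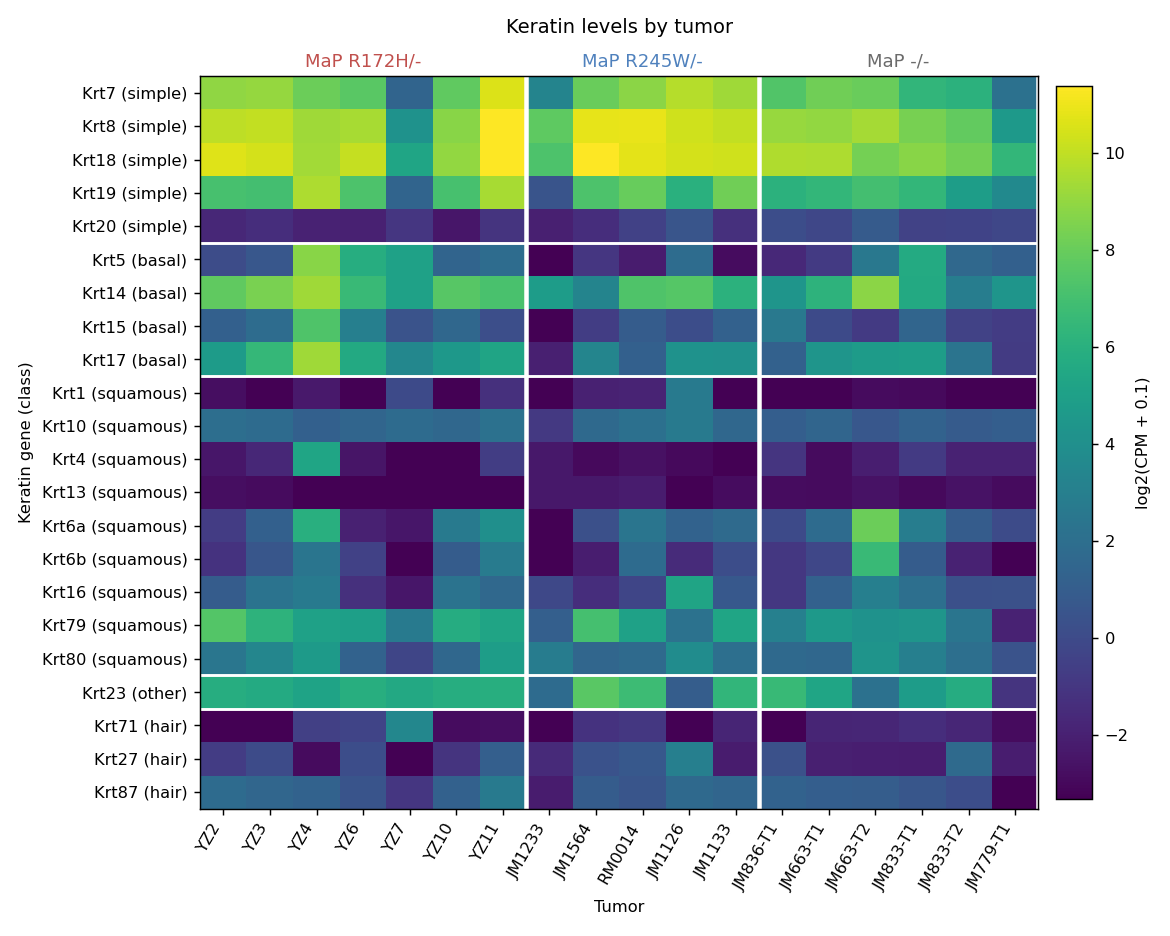
Heat map of log2(CPM + 0.1) for 22 keratins (rows, class in brackets) in the 18 tumors (columns, grouped by MaP genotype); white lines separate groups and classes. Krt7, Krt8, Krt18 and Krt19 are the bright rows. The columns of YZ7 and JM779-T1 are darker in these rows, and that of JM1233 mainly in Krt7 and Krt19. YZ4 (Krt5, Krt15, Krt17, Krt4), JM663-T2 (Krt6a, Krt6b) and JM1126 (Krt1, Krt16) each stand out in another block.

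The tumors made mostly simple keratins. Keratin counts were 0.0871% to 0.731% of all counts in 15 tumors, and 0.0205% in YZ7, 0.0436% in JM1233 and 0.0151% in JM779-T1. Summed per kilobase, the simple keratins were 80.5% to 95.9% of all keratin in 15 tumors. The exceptions were YZ7 (36.8%), YZ4 (54.0%) and JM663-T2 (60.5%). YZ4 and YZ7 had the largest basal shares, 41.9% and 39.3%, but in YZ4 this was a basal sum of 1017 CPM per kilobase and in YZ7 one of 41.8 CPM per kilobase. JM663-T2 had a basal share of 23.3% and the largest squamous share, 15.95%, against 0.748% to 5.20% in the others. Per kilobase Krt18 was the most abundant keratin in 15 tumors, Krt8 in JM1233 and JM663-T2, and Krt19 in YZ4.

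**Figure D2:**
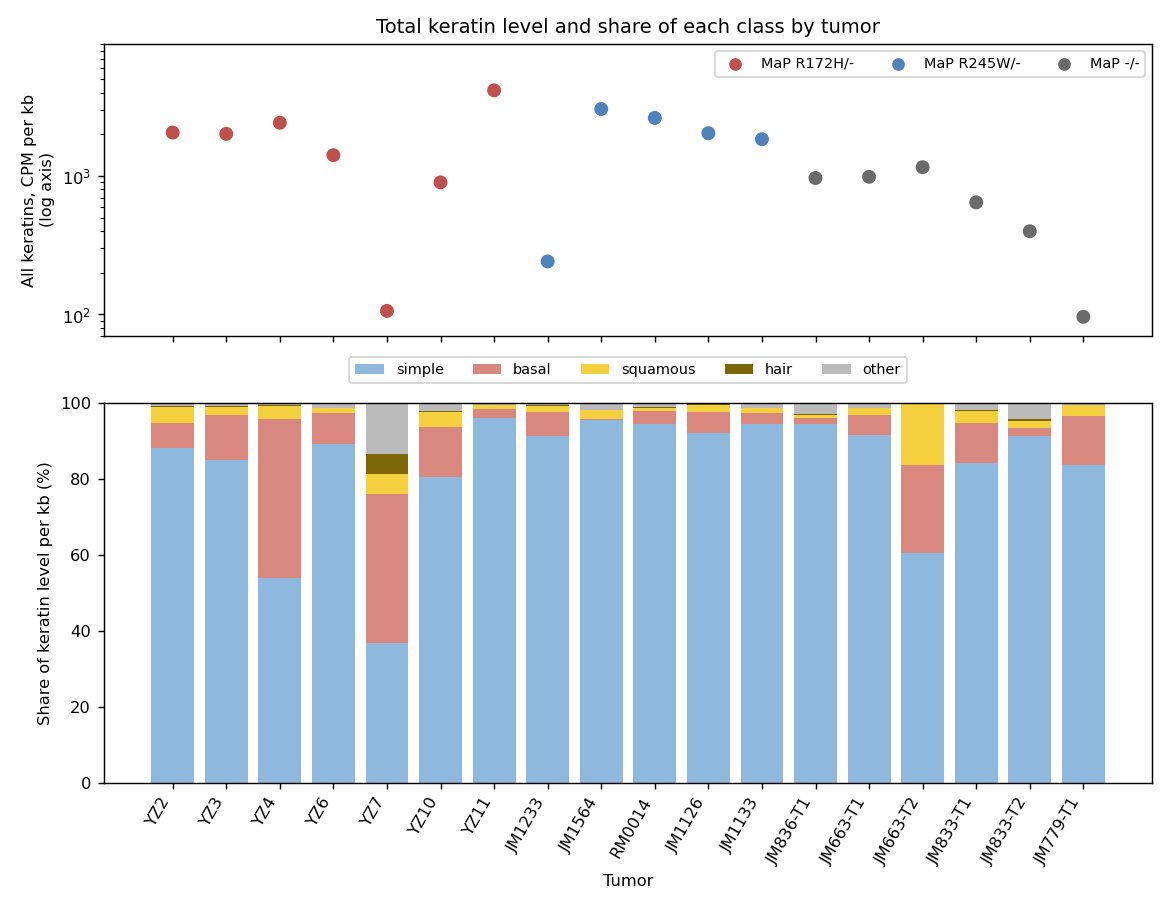
Upper panel: summed level of the 54 keratins in CPM per kilobase (log axis) in each tumor, coloured by MaP genotype. Lower panel: percent of that sum from simple, basal, squamous, hair and other keratins. YZ7 and JM779-T1 have the lowest sums, 106 and 96.2 CPM per kilobase, and simple keratins are under 80% of the sum in YZ4, YZ7 and JM663-T2.

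Krt8 is the type II chain of simple epithelia. It ranged from 18.05 CPM in YZ7 to 2574 CPM in YZ11 among the MaP R172H/- tumors, with a median of 716 CPM. The MaP R245W/- tumors had 215 CPM (JM1233), 1835 CPM (JM1564), 1905 CPM (RM0014), 1279 CPM (JM1126) and 1025 CPM (JM1133). The MaP -/- tumors ranged from 25.1 CPM in JM779-T1 to 663 CPM in JM663-T2, with a median of 417 CPM. Apart from JM1233, every MaP R245W/- tumor lay above every MaP -/- tumor, while the MaP R172H/- tumors spanned both.

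Its type I partner Krt18 went from 39.3 to 2664 CPM in MaP R172H/- tumors, with a median of 1078 CPM. It was at 154, 2607, 1786, 1401 and 1273 CPM in the MaP R245W/- tumors JM1233, JM1564, RM0014, JM1126 and JM1133. In MaP -/- tumors it went from 83.8 to 792 CPM, with a median of 371 CPM. The lowest tumor of each group was the same as for Krt8. The ratio of Krt8 to Krt18 per kilobase was above 1 in 2 tumors, JM1233 (1.02) and JM663-T2 (1.56), and was lowest in JM779-T1 (0.220) and YZ7 (0.337). Type I chains made up 49.4% to 83.4% of keratin per kilobase, the lower end in JM663-T2 and the upper end in JM779-T1.

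The promoters of Krt8 and Krt18 are shown because these genes moved together more closely than any other pair examined. Each is the stretch of 250 bases before the start of the gene's main transcript in GRCm39, read 5′ to 3′ on the strand of the gene, chr15:101912918-101913167 on the minus strand for Krt8 and chr15:101936365-101936614 on the plus strand for Krt18. Capitals mark matches on either strand to the AP-2 motif (GCCNNNGGC), the AP-1 motif (TGANTCA), the TATA box (TATAAA) or a p53 family motif. The p53 family motif searched was a single unit of the paired site, so a match is not by itself a complete p53 site.
Krt8: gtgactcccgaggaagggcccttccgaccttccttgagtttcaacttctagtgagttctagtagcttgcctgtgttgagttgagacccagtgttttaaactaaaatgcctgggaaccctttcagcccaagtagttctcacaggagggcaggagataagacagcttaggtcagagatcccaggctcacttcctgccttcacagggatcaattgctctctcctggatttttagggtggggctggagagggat
Krt18: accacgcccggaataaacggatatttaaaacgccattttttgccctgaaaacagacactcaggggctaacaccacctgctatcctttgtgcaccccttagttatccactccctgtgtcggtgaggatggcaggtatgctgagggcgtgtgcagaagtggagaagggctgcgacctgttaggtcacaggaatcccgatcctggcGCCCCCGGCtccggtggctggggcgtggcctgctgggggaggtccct
Krt8 held none of the 6 motifs searched, and Krt18 held an AP-2 match 47 bases before its start. AP-2 matches stood in 10 of the 54 keratin promoters and in 13.2% of 21757 promoters of the same length. A match is a string of letters and was not tested for binding.

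Krt7 and Krt19, which luminal cells of ducts add to Krt8 and Krt18, had a wider range over the 18 tumors than either. Krt7 went from 2.60 to 1560 CPM in MaP R172H/- (median 270 CPM) and from 4.46 to 297 CPM in MaP -/- tumors (median 125 CPM). In MaP R245W/- tumors Krt7 was at 9.82, 258, 455, 862 and 622 CPM in the order above. Krt19 was at 2.60 CPM in YZ7 and at 1.31 CPM in JM1233, but at 766 CPM in YZ4 and 699 CPM in YZ11, a range of 583 times between its highest and lowest tumor.

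Krt20, the simple keratin of gut lining and bladder umbrella cells, was near the detection limit everywhere, with at most 54 counts in a tumor. It was at 0.0822 to 0.396 CPM in the 7 MaP R172H/- tumors (median 0.216 CPM), at 0.149, 0.278, 0.631, 1.38 and 0.305 CPM in the MaP R245W/- tumors and at 0.648 to 1.78 CPM in the 6 MaP -/- tumors (median 0.769 CPM). Every MaP R172H/- tumor lay below every MaP -/- tumor, and each was under 10 counts.

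Of the basal keratins Krt5 and Krt15 were high in few tumors, while Krt14 reached 10 counts in all 18 and Krt17 in 17. Krt5, the type II chain of basal cells, was at 440 CPM in YZ4, 56.2 CPM in YZ6 and 34.5 CPM in YZ7, and at 0.950 to 3.61 CPM in the other 4 MaP R172H/- tumors. Among MaP -/- tumors it was at 50.2 CPM in JM833-T1 and at 0.226 to 5.77 CPM in the rest. The MaP R245W/- tumors had 0 counts (JM1233), 0.402 CPM (JM1564), 0.115 CPM (RM0014), 3.52 CPM (JM1126) and 0.0382 CPM (JM1133), none above 4 CPM. In JM1233 a count of 0 allows up to 3 counts, or 0.0896 CPM, for counting error only.

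Krt14, the usual type I partner of Krt5, was found well above Krt5 in most tumors. It went from 34.3 to 627 CPM in MaP R172H/- (median 187 CPM) and from 7.33 to 454 CPM in MaP -/- tumors (median 34.4 CPM). The MaP R245W/- tumors had 27.6, 9.77, 158, 179 and 68.6 CPM. Per kilobase Krt14 exceeded Krt5 by over 10 times in 11 tumors, with 278 times in YZ2 and YZ3 and 1676 times in RM0014, where Krt5 had 4 counts, and Krt5 was at 3 counts or fewer in a further 2 (JM1233 and JM1133). In 5 tumors (YZ4, YZ6, YZ7, JM833-T1 and JM833-T2) the ratio was under 3, between 1.19 and 2.91. Trp63, the p53 relative that basal epithelial cells express, was at 120, 25.7, 188, 29.2 and 3.14 CPM in these 5, at 51.8 CPM in JM1233, at 27.3 CPM in YZ10 and at 1.02 to 10.9 CPM in the other 11 tumors.

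Krt17, a type I chain of basal and appendage epithelium, was at 634 CPM in YZ4 and 86.9 CPM in YZ3, and from 10.9 to 48.1 CPM in the other MaP R172H/- tumors. It was at 0.149, 10.1, 2.21, 18.2 and 16.9 CPM in MaP R245W/- and from 0.485 to 28.8 CPM in MaP -/- tumors. Krt15, a chain of basal and hair bulge cells, was at 158 CPM in YZ4, which is 19.5 times the next tumor, YZ6 (8.10 CPM), and at or under 6.02 CPM in all others. Besides its simple keratins YZ4 thus carried all 4 basal keratins at their highest levels of the series. Chosen after the values were seen, Col17a1, a hemidesmosome collagen of basal cells, was at 501 CPM in YZ4 and Dsc3, a desmosome cadherin of stratified epithelium, at 81.8 CPM, also the highest of the 18. YZ7 had the lowest Krt7, Krt8 and Krt18 of the 18 tumors but 188 CPM of Trp63 and 1154 CPM of the smooth muscle actin Acta2, the highest of the 18 for both, and Cdh1 at 216 CPM (Acta2 and Cdh1 chosen after the values were seen).

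The promoters of the basal keratins are given because Krt14 and Krt17 share a motif that Krt5 lacks. The 250 bases are at chr15:101621347-101621596 for Krt5, chr11:100098491-100098740 for Krt14 and chr11:100151975-100152224 for Krt17, all on the minus strand, with capitals as above.
Krt5: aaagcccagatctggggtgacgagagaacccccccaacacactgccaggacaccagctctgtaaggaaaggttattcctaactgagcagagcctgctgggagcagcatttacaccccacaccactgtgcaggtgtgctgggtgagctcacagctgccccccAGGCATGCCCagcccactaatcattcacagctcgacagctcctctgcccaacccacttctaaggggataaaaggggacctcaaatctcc
Krt14: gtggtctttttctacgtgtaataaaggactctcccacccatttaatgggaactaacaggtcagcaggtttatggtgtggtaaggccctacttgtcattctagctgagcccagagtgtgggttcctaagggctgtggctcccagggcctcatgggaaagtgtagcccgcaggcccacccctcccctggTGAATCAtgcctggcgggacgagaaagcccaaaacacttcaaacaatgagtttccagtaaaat
Krt17: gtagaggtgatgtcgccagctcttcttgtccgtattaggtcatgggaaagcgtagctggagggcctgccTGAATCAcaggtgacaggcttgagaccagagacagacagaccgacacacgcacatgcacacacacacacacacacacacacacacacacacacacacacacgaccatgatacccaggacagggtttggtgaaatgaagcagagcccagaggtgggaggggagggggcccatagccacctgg
Krt14 held an AP-1 match 63 bases and Krt17 one 181 bases before the start. AP-1 matches were present in 6 of 54 keratin promoters (Krt4, Krt13, Krt14, Krt15, Krt16 and Krt17) and in 6.18% of all promoters. All 6 are basal or squamous keratins, as are Krt1, Krt5, Krt6a, Krt6b and Krt10, which held no AP-1 match. Krt5 held a match to the single p53 family unit (AGGCATGCCC) 89 bases before its start. This unit was found in 4 of 54 keratin promoters and in 6.69% of all, and complete paired sites were not searched for. The TATA box stood in 24 of 54 against 11.9% of all promoters, the GC box (GGGCGG) in 6 of 54 against 36.3%, and the NR5A2 motif (CAAGGNCA) in 3 of 54 (Krt9, Krt24 and Krt77) against 5.31%. Krt9 and Krt24 were not among the keratins tested, and neither was Krt77.

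Squamous keratins other than Krt79 were low in most tumors. The peaks of Krt6a, Krt6b, Krt16, Krt1 and Krt4 lay in JM663-T2, JM1126 or YZ4. Krt6a and Krt6b, the type II chains of activated squamous epithelium, were at 272 and 99.3 CPM in JM663-T2. The next highest tumor had 60.9 CPM of Krt6a (YZ4) and 6.86 CPM of Krt6b (YZ11), and Krt6a was at 0 counts in JM1233. The main transcripts of Krt6a and Krt6b are 91% identical and share runs of up to 280 bases, so the split of their reads is uncertain. Krt14 was also high in JM663-T2, at 454 CPM, and Krt16, the type I partner of Krt6a, at 8.05 CPM.

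JM1126, which the study's pathology classes as a nonmetaplastic sarcoma, had Krt8 at 1279 CPM and Krt18 at 1401 CPM, and the highest Krt16 (38.2 CPM), Krt1 (6.49 CPM) and Krt10 (6.43 CPM) of the series. Krt1, the type II partner of Krt10 in upper epidermis, was at 3 counts or fewer in 13 tumors. Krt77, an epidermal type II keratin chosen after the values were seen, was at 4.13 CPM in JM1126 and at most 0.135 CPM elsewhere. The same tumor had 358 CPM of Klk8, a protease of upper epidermis, against at most 10.4 CPM elsewhere. Loricrin, the main protein of the cornified envelope, stayed at or below 0.420 CPM in all 18 tumors.

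Krt4, the type II keratin of internal squamous epithelium, was at 39.5 CPM in YZ4 and at most 0.542 CPM in any other tumor. Its partner Krt13 stayed at or under 0.115 CPM in all tumors. Krt78, chosen after the values were seen, was likewise at 17.4 CPM in YZ4 and at most 0.865 CPM elsewhere. Krt79, a keratin of the hair follicle opening and also outside the rule, was the most abundant squamous-class keratin per kilobase in 13 tumors and reached 172.3 CPM in YZ2. It made up 82.2 of the squamous sum of 87.7 CPM per kilobase in YZ2, and 63.6 of 67.6 in JM1564. That sum was 184.9 in JM663-T2, 82.6 in YZ4 and 38.7 in JM1126. Krt80, a type II keratin found in many differentiating epithelia, was present in all tumors at 0.748 to 28.5 CPM. Krt10 had a range of 14.4 times, from 0.448 CPM in JM1233 to 6.43 CPM in JM1126.

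Among other keratins, Krt23, a type I chain of several simple epithelia, was at 199 CPM in JM1564 and at 37.2 to 60.4 CPM in all 7 MaP R172H/- tumors, including YZ7 with 47.6 CPM. It was under 5 CPM in JM1233 (3.46 CPM), JM1126 (1.89 CPM), JM663-T2 (4.32 CPM) and JM779-T1 (0.356 CPM). The hair and root sheath keratins reached 10 counts in at least 1 tumor for 10 of 24 members. The 3 with the highest level in a single tumor were Krt71, Krt27 and Krt87. Krt71, a root sheath keratin, was at 11.1 CPM in YZ7 and at most 0.704 CPM elsewhere. YZ7 also had 136 CPM of the pigment cell enzyme Tyrp1 (chosen after the values were seen), against at most 0.978 CPM elsewhere, and its summed hair follicle genes were at 115 CPM. The summed hair follicle genes were at 117 CPM in JM1126 and at 6.18 to 32.4 CPM in the other 16. Padi1 (78.5 CPM) and Padi3 (29.7 CPM) made up most of the sum in JM1126, and Padi3 (90.4 CPM) most of that in YZ7, while Hoxc13 was at 0 counts in JM1126. Krt27, another root sheath keratin, was highest in JM1126 (7.93 CPM) and Krt87, a hair shaft keratin, in YZ11 (6.64 CPM). Genes of the Krtap family, which make the matrix of hair, summed to at most 6.06 CPM (YZ4), and 49 of 113 were at 0 counts in every tumor. The part of skin or hair in these values was not tested.

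**Figure D3:**
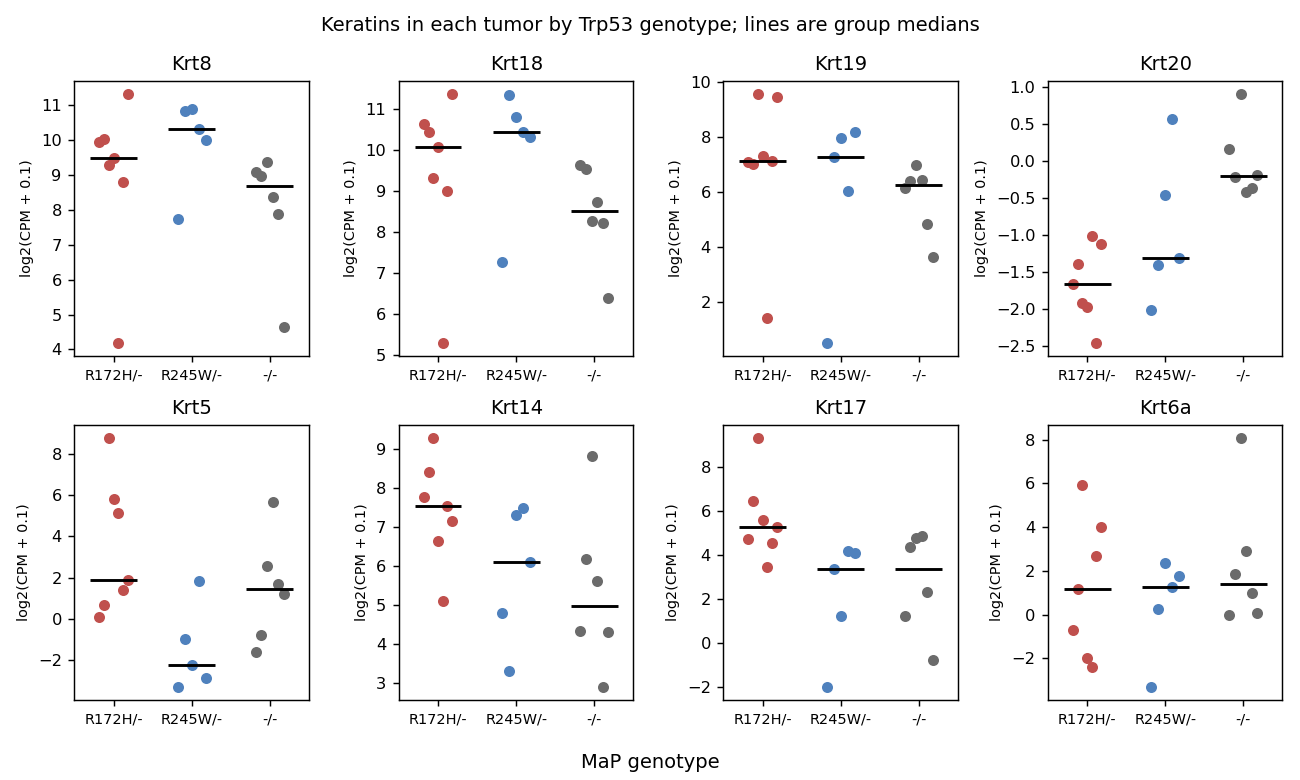
Level of 8 keratins as log2(CPM + 0.1) in each tumor by MaP genotype; points are tumors and lines are group medians. Krt20 is the only one of the 8 whose MaP R172H/- points (0.0822 to 0.396 CPM) all lie below the MaP -/- points (0.648 to 1.78 CPM); the low point of each group for Krt8 and Krt18 is YZ7, JM1233 or JM779-T1.

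The first comparison asked how keratin RNA differs between tumors with p53 R172H and tumors without p53. Krt20 was lower in MaP R172H/- tumors by a log2 fold change of -1.96 (SE 0.362, n = 7 and 6, FDR 0.00552, edgeR quasi-likelihood test over 20954 genes), in 7 of 7 tumors against every MaP -/- tumor. With the tumors of 1 mouse summed the value was -1.94 (FDR 0.0148, edgeR). A gene was called at a false discovery rate (FDR) under 0.05 with an absolute log2 fold change of at least 1. Krt20 was the 1 keratin called of 20 tested, against 5.02% of all genes (3.33% called lower), and the 1 keratin whose groups did not overlap, against 4.62% of all genes. It reached 10 counts in every MaP -/- tumor and in no MaP R172H/- tumor. Krt20 thus passed the low-count filter through the group where it was high, and the call and the lack of overlap carry that selection. At an unadjusted p under 0.05 there were 6 of 20 keratins, against 24.7% of all genes. In 15 of 20 keratins the log2 fold change was above 0, against 50.2% of all genes, with a median of 0.93 against 0. The share of keratins called is that of all genes.

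By class, all 4 basal keratins had log2 fold changes above 0 against MaP -/- tumors, with a median of 3.07, and 0 were called. Krt15 had 3.81 (SE 1.36, FDR 0.102), Krt17 3.19 (SE 1.12, FDR 0.0975) and Krt5 2.94 (SE 1.59, FDR 0.273) in the edgeR test. These values rest largely on 1 tumor. Without YZ4 they were 0.78, 1.47 and 0.67. Krt14 had 1.20 (SE 0.883, FDR 0.424), with 0.70 (FDR 0.665) without YZ4 and 2.83 (FDR 0.0417, edgeR) without JM663-T2. Of 5 simple keratins 4 were above 0, with a median of 1.38 over the 5. Krt19 had 2.13 (FDR 0.152), Krt18 1.38 (FDR 0.236), Krt8 1.28 (FDR 0.335) and Krt7 1.68 (FDR 0.306). With the epithelial score as a covariate in the edgeR fit the values for Krt8 and Krt7 were -0.31 and -0.33, and those for Krt18 and Krt19 were 0.20 and 0.93. Among 6 squamous keratins 4 were above 0 and 0 were called. Krt6a was at -1.92 (FDR 0.480) and Krt6b at -2.86 (FDR 0.286), and without JM663-T2 they were at 2.12 and 1.88. Krt10 had 0.68 (SE 0.223, FDR 0.0771). Without YZ7, JM1233 and JM779-T1 the keratins called were Krt20 (-2.17, FDR 0.00721) and Krt79.

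**Figure D4:**
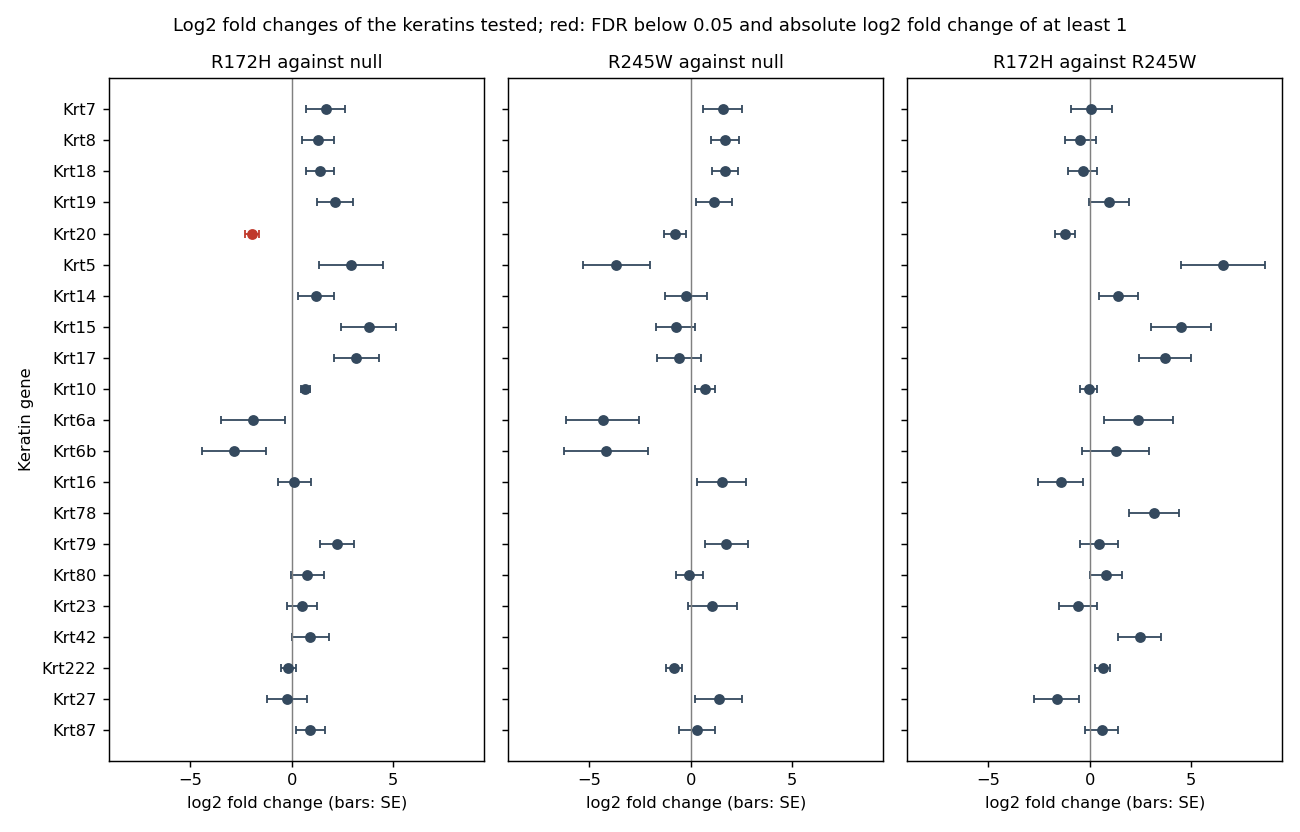
Log2 fold changes (points) with standard errors (bars) of the 21 keratins that passed the low-count filter in at least 1 comparison, in the 3 comparisons of genotypes (edgeR). The only red point, called at an FDR under 0.05 and an absolute log2 fold change of at least 1, is Krt20 in R172H against null (-1.96); the widest bars belong to Krt5, Krt6a and Krt6b.

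The second comparison set tumors with p53 R245W against tumors without p53, both sequenced on 1 platform. In edgeR 0 of 19 keratins were called, against 0% of 21452 genes, and the groups of 0 keratins did not overlap, against 1.32% of genes. At an unadjusted p under 0.05 there were 4 keratins, against 11.8% of genes. Of these, Krt18 (log2 fold change 1.69, SE 0.641, FDR 0.373) and Krt8 (1.70, SE 0.679, FDR 0.384) were above 0. Krt5 (-3.67, SE 1.66, FDR 0.419) and Krt6a (-4.34, SE 1.80, FDR 0.389) were below 0. The value for Krt6a was -0.32 without JM663-T2 and that for Krt5 -1.53 without JM833-T1. All 4 basal keratins were below 0 (median -0.65) and 4 of 5 simple keratins above 0 (median 1.57). DESeq2 also called 0 keratins. Without the 3 tumors lowest in epithelial adhesion genes 0 keratins were called, with Krt18 at 1.77 (FDR 0.131) and Krt8 at 1.73 (FDR 0.124).

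The third comparison was between the mutants, in a fit of all 18 tumors. In edgeR 0 of 21 keratins were called, against 6.19% of 22481 genes, and the groups of 0 did not overlap, against 5.83% of genes. At an unadjusted p under 0.05 there were 6 keratins, against 25.9% of genes. All 4 basal keratins were above 0, that is higher in MaP R172H/- tumors, with a median of 4.10. Krt5 had 6.56 (SE 2.06, FDR 0.0537), Krt15 4.49 (SE 1.49, FDR 0.0667), Krt17 3.70 (SE 1.28, FDR 0.0768) and Krt14 1.41 (SE 0.947, FDR 0.368). Without YZ4 the value was 4.33 for Krt5, 1.50 for Krt15 and 2.03 for Krt17. DESeq2 called 2 keratins, Krt5 (FDR 0.000153) and Krt17 (FDR 0.00532). With the epithelial score as a covariate edgeR called Krt15 (4.56, FDR 0.0497) and Krt8 (-1.37, FDR 0.0425). Without the 3 tumors lowest in epithelial adhesion genes it called 1 keratin, Krt4, the gene found mainly in YZ4. The simple keratins Krt8 (-0.46, FDR 0.753), Krt18 (-0.35, FDR 0.801) and Krt7 (0.08, FDR 0.973) were near 0, with standard errors of 0.770, 0.714 and 1.01.

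Keratin partners were compared across 16 mice, with the tumors of 1 mouse averaged, on log2 CPM. Krt8 and Krt18 followed each other with a Pearson r of 0.97 (Spearman rho 0.96, both p = 1e-05, the smallest that 100000 permutations can give, adjusted over 5 pairs to 5e-05, two-sided permutation test). Without the 2 mice farthest from the median, YZ7 and JM779, r was 0.96. Within the 7 HiSeq mice r was 0.99 and within the 9 NovaSeq mice 0.95. Krt5 and Krt14 gave an r of 0.34 (permutation p = 0.196, rho 0.21, permutation p = 0.437, adjusted p = 0.196 for r), 0.02 within either platform and 0 without YZ4 and JM1233.

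Krt7 and Krt19, a type II and a type I chain of ducts, gave an r of 0.87 (rho 0.62, permutation p = 0.00015 and 0.0119, adjusted p = 0.000375 for r) and 0.83 without the 2 farthest mice. Within platforms r was 0.91 in HiSeq and 0.84 in NovaSeq mice, but among the HiSeq mice it was -0.25 without YZ7 and YZ11, so the relation there rests on these 2. Krt6a and Krt16 gave an r of 0.60 (rho 0.65, permutation p = 0.0146 and 0.00724, adjusted p = 0.0243 for r), 0.86 within HiSeq and 0.34 within NovaSeq mice (adjusted exact permutation p = 0.388). Krt1 and Krt10 gave an r of 0.59 (rho 0.73, permutation p = 0.0295 and 0.00202, adjusted p = 0.0369 for r), 0.47 without JM1126 and YZ7, and 0.32 within HiSeq and 0.70 within NovaSeq mice (adjusted exact permutation p = 0.615 and 0.12). These 2 relations did not hold within both platforms. Krt1 was at 3 counts or fewer in 13 tumors, so most of its values lay near the detection limit. All pairs share their libraries and the epithelial content of each tumor.

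**Figure D5:**
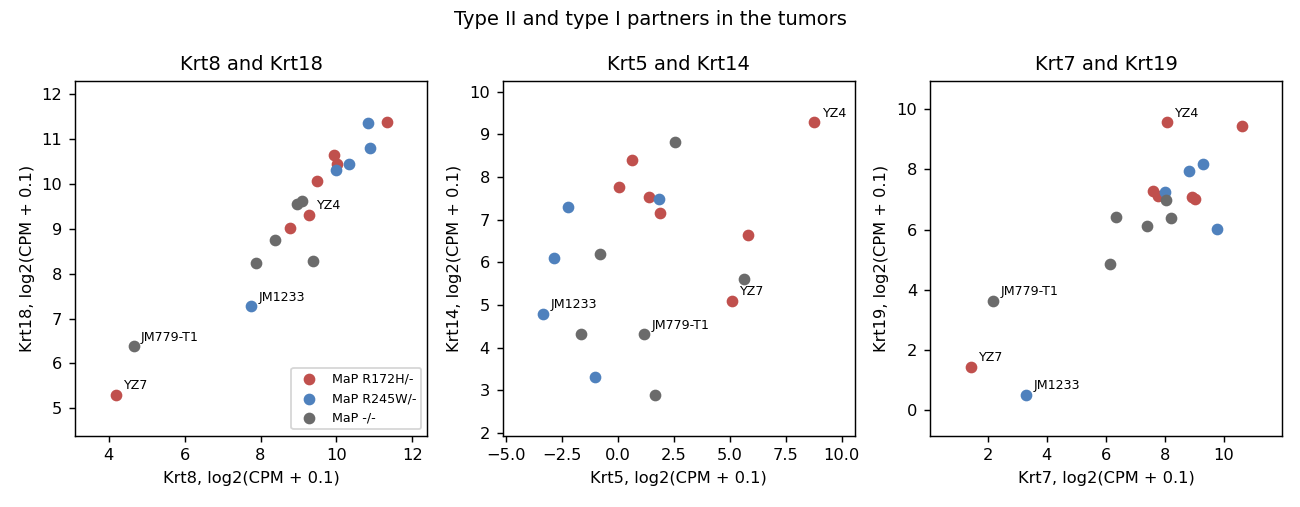
Type I keratin (vertical axis) against its type II partner (horizontal axis), both as log2(CPM + 0.1), in the 18 tumors coloured by MaP genotype. Krt8 and Krt18 lie along a line (r = 0.97 over 16 mice), Krt5 and Krt14 scatter (r = 0.34), and YZ7, JM1233 and JM779-T1 form the low end for Krt7 and Krt19 (r = 0.87).

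Both mice with 2 sequenced MaP -/- tumors had tumors that differed in keratins. In mouse JM663 the second tumor had 78.0 times the Krt6a, 130.3 times the Krt6b, 12.2 times the Krt5 and 6.22 times the Krt14 of the first, while Krt7 (1.13 times higher in the first) and Krt8 (1.32 times higher in the second) were close. Krt23 was 9.29 times and Krt18 2.41 times higher in the first. In mouse JM833 the first tumor had 16.3 times the Krt5, 6.66 times the Krt14 and 5.87 times the Krt17 of the second, with Krt8 and Krt18 at 1.42 and 1.43 times. Krt5, Krt14, Krt6a and Krt6b thus differed more than Krt8 between the tumors of either mouse, while Krt17 in JM663 (1.34 times) and Krt10 in JM833 (1.33 times) differed about as little as Krt8, as a description of these 2 mice with no test.

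The histology that the study's pathology gave could be assigned to 16 tumors and is used as a description. The labels name the tumors JM836-T1 and JM779-T1, while the study marks the second tumor of each of these mice as sequenced, so their histology is unassigned. All 7 MaP R172H/- tumors are nonmetaplastic adenocarcinomas and none is triple-negative, so histology, subtype, genotype and platform cannot be told apart there. The 8 nonmetaplastic adenocarcinomas had a median simple share of 86.5% (36.8% to 95.9%) and a median basal share of 10% (0.391% to 41.9%). Both ends of the basal range are of this histology, JM1564 and YZ4. The 5 metaplastic sarcomatoid carcinomas had a median simple share of 91.6% (60.5% to 94.6%) and a basal share of 5.38% (2.67% to 23.3%). The 2 metaplastic poorly differentiated carcinomas, both from mouse JM833, had simple shares of 84.2% and 91.3%. The sarcoma JM1126 had a simple share of 92.2% and keratins at 0.330% of all counts, above 4 of the 5 metaplastic sarcomatoid carcinomas and below RM0014 (0.441%). The keratin level per kilobase overlapped between the adenocarcinomas (106 to 4162 CPM per kilobase) and the metaplastic sarcomatoid carcinomas (242 to 2631 CPM per kilobase).

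Genes that act with keratins were read from lists. In MaP R172H/- against MaP -/- tumors 5.02% of all genes were called and 50.2% had log2 fold changes above 0. Of the desmosome genes, which anchor keratins at cell contacts, 0 of 11 tested were called in MaP R172H/- against MaP -/- tumors and 11 of 11 were above 0 (median 1.03). The hemidesmosome genes, which anchor Krt5 and Krt14 to the basement membrane, were at 0 of 9 called with 8 above 0, and the epithelial adhesion genes at 0 of 18 called with 18 above 0 (median 0.98). Among regulators of keratin genes 1 of 15 was called, Sox15, higher in MaP R172H/-. The fibroblast list had 3 of 8 genes called lower (Fap, Lum and Pdgfra) and the immune list 3 of 8 (Adgre1, Itgam and Ptprc), against 3.33% of all genes called lower. Of the 8 fibroblast genes 3 were above 0 and of the 8 immune genes 0. Against MaP R245W/- tumors, MaP R172H/- tumors had Klk8 called lower of 12 cornified envelope genes, Des and Nefl of 12 other intermediate filament genes, and 5 of 5 skeletal muscle genes, against 6.19% of all genes called in either direction. The fibroblast gene Lum and the immune genes Adgre1 and Itgam were also called lower there, and 0 of 8 fibroblast genes were above 0 (median -1.46). Few MaP R245W/- tumors carried the high values of Klk8, Des and Nefl. Klk8 was at 358 CPM in JM1126 and at 1.40 to 7.79 CPM in the rest of that group. Des was at 207 CPM in JM1233 and 39.6 CPM in JM1133, and at most 14.3 CPM in the rest. Nefl was at 2.36 CPM in JM1233 and 2.08 CPM in JM1126, and at most 0.382 CPM in the rest. The muscle genes summed to 983 CPM in JM1233, the MaP R245W/- tumor lowest in keratins. In MaP R245W/- against MaP -/- tumors 0 genes of any list were called, as were 0 of all 21452 genes tested. Directions were similar to those for MaP R172H/-. The epithelial adhesion genes had 18 of 18 above 0 (median 0.60) and the desmosome genes 9 of 12 (median 0.58). The hemidesmosome genes had 7 of 9, against 51.8% of all genes. The part of stromal content in the keratin values was not tested.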

How the data were processed

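Tumor RNA was depleted of ribosomal RNA and made into stranded libraries (TruSeq Stranded Total RNA, Ribo-Zero Gold). Per the study's methods and the submitters' processing notes, reads were aligned with STAR 2.7.10b to GRCm39 and assigned to genes with RSEM 1.3.3. The deposited values are whole-number counts per gene without normalization. Gene identifiers were matched to GENCODE M39, a later release than the one used by the authors, and 56620 of 57126 matched. The remaining 506 accounted for no more than 0.0464% of the counts in a tumor. Krt74 is not annotated as protein-coding in this release and was left out. Classes and gene lists were written by hand, and Krt88, which the classes lack, was put under other. The members, classes and lists were chosen with earlier results of these data known.

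Samples were grouped by the genotype in the labels. The mutant groups were each compared with MaP -/- tumors in a fit of their own, and with each other in a fit of all 18 tumors, by the quasi-likelihood test of edgeR 4.0.16 (R 4.3.3) on the counts, with TMM, filterByExpr and Benjamini-Hochberg adjustment over all genes tested. The standard error is the absolute log2 fold change over the square root of F. CPM use the TMM library sizes of the 18 tumors, and levels per kilobase divide them by the length of the main transcript. Replicate numbers were given in accession order and pair nothing. The p-values measure the spread between tumors, of which the 6 MaP -/- tumors come from 4 mice. Tumors of 1 group had Spearman correlations from 0.820 to 0.971 over 17529 genes. Correlations used log2 CPM with a prior count of 0.5, and exact permutation tests within platforms. The edgeR test was tested on simulated data. Motifs were searched on both strands in the 250 bases before the start of the main transcript of 21757 protein-coding genes.

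Named keratins were Krt7, Krt8, Krt18, Krt19 and Krt20 (simple), Krt5, Krt14, Krt15 and Krt17 (basal), Krt1, Krt4, Krt6a, Krt6b, Krt10, Krt13 and Krt16 (squamous), Krt23 and Krt80, the 3 hair keratins with the highest level in any tumor, and any other keratin called. List genes were named where called, at most 5 a list, with Trp63, Epcam and Vim. Alternatives were a DESeq2 1.42.0 Wald test, DESeq2 size factors, other filters and fold change thresholds, tumors of 1 mouse summed, 1 fit of 18 tumors, the epithelial score as covariate, each tumor left out, and a prior count of 2. Leaving out the 3 tumors of lowest epithelial score and lengths from all exons were chosen after seeing the data.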

Additional observations from a re-analysis of the deposited data

Results flagged for a closer look

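Among 56 sets of 1 keratin in 1 group, 15 held a tumor whose gap to the nearest other, on the log2 scale, was large against the range of its group. Chance alone flags about 1 in 20 sets, and keratins of 1 tumor are not independent. Of the 15, 13 were low values in YZ7, JM1233 or JM779-T1. YZ7 was low in MaP R172H/- for Krt7 (2.60 CPM), Krt8 (18.05 CPM), Krt18 (39.3 CPM) and Krt19 (2.60 CPM). JM1233 was low in MaP R245W/- for Krt7 (9.82 CPM), Krt8 (215 CPM), Krt18 (154 CPM), Krt19 (1.31 CPM), Krt6a (0 CPM) and Krt87 (0.119 CPM). JM779-T1 was low in MaP -/- for Krt7 (4.46 CPM), Krt8 (25.1 CPM) and Krt87 (0 CPM). The 2 high values were Krt15 in YZ4 (158 CPM) and Krt6a in JM663-T2 (272 CPM).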

How the results depend on the processing

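No paired analysis was possible because the replicate numbers are only names. In R172H against null, 1 keratin was called, and 3 were with DESeq2 (Krt17, Krt20 and Krt79), 0 with at least 10 counts required in every tumor (which removes Krt20), 0 at an absolute log2 fold change of at least 2, and 2 without the 3 tumors of lowest epithelial score (Krt20 and Krt79). Leaving out 1 tumor gave 1 to 2, with Krt19 added without YZ7 and Krt14 added without JM663-T2. In R172H against R245W, 0 were called, and 2 were with DESeq2 (Krt5 and Krt17), 2 with the epithelial covariate (Krt8 and Krt15) and 1 without the 3 tumors (Krt4). Leaving out 1 tumor gave 0 to 1, namely Krt15 without YZ7 and Krt5 without JM1126 or JM833-T1. In R245W against null 0 were called in every setting.

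Among log2 fold changes that were not called, the epithelial covariate turned the sign of Krt7 (-0.33), Krt8 (-0.31), Krt16 (-0.47) and Krt80 (-0.26) in R172H against null, of Krt87 (-0.16) in R245W against null and of Krt7 (-1.05) in R172H against R245W. The last was -0.02 without the 3 tumors. With the tumors of 1 mouse summed, Krt14 was 0.08 and Krt80 0.18 in R245W against null. With 1 tumor left out, signs also turned within these ranges. In R172H against null they were -3.51 to 2.12 for Krt6a, -3.44 to 1.88 for Krt6b, -0.20 to 0.80 for Krt16 and -0.79 to 1.09 for Krt27. In R245W against null they were -0.67 to 1.38 for Krt14, -1.14 to 0.09 for Krt15, -5.67 to 0.55 for Krt6b, -1.76 to 2.20 for Krt16, -0.59 to 0.67 for Krt80 and -0.10 to 1.69 for Krt27. In R172H against R245W they were -0.64 to 0.47 for Krt7, -0.35 to 0.29 for Krt10, -1.74 to 1.87 for Krt16 and -0.90 to 0.10 for Krt23. The cause was not tested.

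For the pairs, r of Krt1 and Krt10 was 0.58 with a prior count of 2 (adjusted permutation p = 0.0592), 0.32 within HiSeq and 0.70 within NovaSeq mice (adjusted exact permutation p = 0.615 and 0.12). Krt7 and Krt19 had 0.91 within HiSeq mice (adjusted exact permutation p = 0.05), and Krt6a and Krt16 0.34 within NovaSeq mice (adjusted exact permutation p = 0.388). Depth limits Krt20, with at most 54 counts in a tumor, and the 33 keratins that were not tested.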
